A study of Mus musculus with 2 samples.

Results

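A set of 40 genes of the cell division cycle, of the 24510 genes counted, was followed across the immune cells of subcutaneous B16F10 melanomas. They were chosen by name, with earlier results of these data known. Of the 40 genes, 16 serve DNA replication and S phase, 20 serve G2 and mitosis, and 4 (Stmn1, Hmgb2, Tubb5 and Tuba1b) are raised in dividing cells but are also made by resting cells. All 40 were found in the count table.

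A cell that divides passes from G1 through S phase, when its DNA is copied, to G2 and mitosis. E2F factors switch on the replication genes as a cell leaves G1, and the DREAM and MuvB complexes, which bind CHR elements with help from CCAAT boxes, restrict the mitotic genes to G2 and mitosis. Antigen makes T cells expand by division, NK cells divide in response to cytokines such as interleukin 15, and neutrophils leave the cycle before they enter tissue.

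B16F10, a melanoma line of C57BL/6 mice, was implanted under the skin of female C57BL/6 mice as wildtype, Tyr knockout or Oca2 knockout cells, with 3 mice a genotype. Tyr and Oca2 serve melanin synthesis, and the labels give the hosts no genotype other than C57BL/6 and no age. CD45+ cells were sorted, each group received a sample tag, and the pool went through 1 BD Rhapsody capture and 1 whole transcriptome library. The deposited tag calls name tags 8, 9 and 10 and tie none of them to a tumour genotype, so each tag is given as a sample of unnamed genotype and differences between tags are not read as effects of genotype. Animals of a group may be pooled within a tag, since nothing in the labels gives single mice a tag of their own.

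The 3 tags held 4538, 4232 and 4320 cells, of which 3336, 3486 and 3669 had at least 200 genes and at most 25% mitochondrial molecules. These 10491 cells had a median of 3489 molecules, and 7672 of them had at least 2000. Classes were set by counts of marker molecules, none from the 40 genes: CD8 T cells held T receptor and Cd8a or Cd8b1 transcripts, regulatory T (Treg) cells Foxp3, NK cells Ncr1, Klrb1c or other NK receptors, macrophages C1q, and the dendritic classes Xcr1 or Clec9a (cDC1), Cd209a (cDC2) or Fscn1 with Ccr7 (CCR7 DC). CD8 T cells were split into those with at least 2 molecules of Pdcd1, Havcr2 and Lag3, which encode inhibitory checkpoint receptors (checkpoint CD8 T cells, 336), and those with 0 (other CD8 T cells, 232). Of the 10491 cells, 6438 (61.4%) fell in 1 class, and 15 classes had at least 30 cells in each tag. The 3 C1q genes, on which macrophages were gated, summed to 4099, 4244 and 5279 CPM (the gene's share of all molecules of the class, scaled to a common total) in macrophages of tags 8, 9 and 10, against 12.9, 19.1 and 16.5 CPM in checkpoint CD8 T cells. Transcripts of 4 melanoma genes (Pmel, Mlana, Dct, Tyrp1) were present at 15 to 95.5 CPM in the 15 immune classes.

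The promoters of the genes carry the 2 kinds of element named above, so a few are shown before the values. RefSeq promoters (GRCm38.p6, 250 bases before to 50 after the start) were matched by symbol for 33 of the 40 genes. A CHR element (TTTGAA or TTCGAA, either strand) was in 13 of 17 G2 and mitosis promoters (76.5%), in 2 of 13 replication promoters (15.4%) and in 19.4% of the promoters of all 27025 genes. A CCAAT box, read on both strands, was in 15 of 17 (88.2%), 8 of 13 (61.5%) and 37.9%. An E2F element (TTTCCCGC, TTTCGCGC, TTTGCCGC or TTTGGCGC, either strand) was in 1 of 17 (5.88%), 6 of 13 (46.2%) and 2.32%. These are matches of letters and not measured binding. Promoters of 3 mitotic and 2 replication genes follow, 5′ to 3′ on the gene's strand, with matches to any of the motifs in capitals (an uppercase run can hold overlapping matches). Cdk1 is the mitotic kinase, Ccnb2 one of its cyclins and Top2a the topoisomerase that untangles sister chromatids. Mcm5 and Mcm6 are subunits of the replicative helicase.
Cdk1, chr10:69352863-69353162, minus strand: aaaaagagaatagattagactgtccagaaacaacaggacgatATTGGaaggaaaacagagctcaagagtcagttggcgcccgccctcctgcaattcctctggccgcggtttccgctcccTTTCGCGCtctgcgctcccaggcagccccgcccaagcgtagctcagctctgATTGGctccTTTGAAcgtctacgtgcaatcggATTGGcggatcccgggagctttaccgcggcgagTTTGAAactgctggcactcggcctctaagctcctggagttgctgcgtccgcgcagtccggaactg
Ccnb2, chr9:70421505-70421804, minus strand: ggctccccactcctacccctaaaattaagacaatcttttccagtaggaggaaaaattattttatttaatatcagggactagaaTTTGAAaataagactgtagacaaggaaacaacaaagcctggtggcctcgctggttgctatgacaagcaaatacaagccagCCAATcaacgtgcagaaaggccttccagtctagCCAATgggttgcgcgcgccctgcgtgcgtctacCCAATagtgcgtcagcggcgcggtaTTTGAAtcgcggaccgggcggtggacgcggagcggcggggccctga
Top2a, chr11:99024140-99024439, minus strand: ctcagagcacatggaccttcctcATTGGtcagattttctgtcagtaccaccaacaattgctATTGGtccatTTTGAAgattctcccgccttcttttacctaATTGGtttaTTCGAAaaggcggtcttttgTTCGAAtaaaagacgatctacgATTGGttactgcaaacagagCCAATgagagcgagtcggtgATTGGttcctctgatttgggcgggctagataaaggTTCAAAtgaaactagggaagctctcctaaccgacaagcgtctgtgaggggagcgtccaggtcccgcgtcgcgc
Mcm6, chr1:128359656-128359955, minus strand: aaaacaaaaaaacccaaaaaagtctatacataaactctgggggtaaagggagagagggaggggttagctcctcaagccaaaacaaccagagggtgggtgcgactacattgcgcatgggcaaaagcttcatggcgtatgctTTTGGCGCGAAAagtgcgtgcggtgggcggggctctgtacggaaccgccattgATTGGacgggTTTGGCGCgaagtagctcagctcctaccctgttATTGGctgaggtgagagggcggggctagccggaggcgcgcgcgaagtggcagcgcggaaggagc
Mcm5, chr8:75109259-75109558, plus strand: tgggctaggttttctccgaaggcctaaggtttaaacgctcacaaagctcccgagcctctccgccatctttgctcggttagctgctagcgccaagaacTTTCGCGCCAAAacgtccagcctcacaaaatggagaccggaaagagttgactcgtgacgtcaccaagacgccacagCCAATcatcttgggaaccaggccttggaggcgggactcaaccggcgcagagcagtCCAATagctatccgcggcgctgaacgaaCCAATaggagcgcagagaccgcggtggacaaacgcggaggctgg
Cdk1 held 2 CHR, 3 CCAAT and 1 E2F match, and was the mitotic promoter with an E2F match. Ccnb2 held 2 CHR and 3 CCAAT matches and Top2a 4 and 6. Mcm6 held 3 E2F and 2 CCAAT matches and Mcm5 2 and 3, with no CHR match in either window. In GENCODE vM21 (GRCm38) the gene bodies span chr10:69335146-69352938 for Cdk1, chr9:70407692-70421547 for Ccnb2, chr11:98992943-99024189 for Top2a, chr1:128331590-128359664 for Mcm6 and chr8:75109569-75128439 for Mcm5.

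Checkpoint CD8 T cells had the largest share of cycling cells of the 15 immune classes, followed by Treg cells and cDC1. Each cell of at least 2000 molecules was thinned at random to 2000, and called cycling when it kept molecules of at least 2 of the 20 G2 and mitosis genes. The intervals given are exact Clopper-Pearson 95% intervals for counting error only. In checkpoint CD8 T cells the share was 42.6% (26 of 61), 51.4% (73 of 142) and 43.5% (57 of 131) in tags 8, 9 and 10. Over the tags 156 of 334 cells were called (46.7%, interval 41.3 to 52.2). Other CD8 T cells had 15.2% (7 of 46), 21.9% (16 of 73) and 14.7% (14 of 95), so that the lowest checkpoint value lay above the highest of the other CD8 T cells, and the gap within a tag was 27.4, 29.5 and 28.8 percentage points. The gate itself takes deeper cells: the median was 9142 molecules in checkpoint CD8 T cells and 3761 in other CD8 T cells. When the CD8 T cells were split by the checkpoint molecules left after thinning, an alternative added after seeing the data, the median share over tags was 38.2% in cells with such molecules and 28.7% in cells without, a narrower gap than with the gate on all molecules (43.5% and 15.2%). With 3 tags no two-sided exact test could go below 0.25, so none is given.

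Treg cells had 31.4% (16 of 51), 45.6% (26 of 57) and 27.5% (14 of 51) cycling cells. Conventional CD4 T cells, in which no Foxp3 molecule was counted, had 8.0% (6 of 75), 5.81% (5 of 86) and 9.57% (9 of 94). The Foxp3 gate, at least 2 molecules against 0 before thinning, also went with depth. The median was 5473 molecules in Treg cells and 2941.5 in conventional CD4 T cells, and this gate was not repeated after thinning. The groups did not overlap, and the gap was 23.4, 39.8 and 17.9 points. Gamma-delta T cells were lower still in each tag (2.44%, 5.56% and 3.03%, 5 of 143 cells in all), although the gap to conventional CD4 T cells in tag 9 was only 0.258 points. NK cells had 13.8% (18 of 130), 13.9% (33 of 238) and 14.2% (32 of 226), the narrowest spread of these lymphocytes. Other CD8 T cells exceeded NK cells by 1.37, 8.05 and 0.578 points, a difference smaller than the spread of the other CD8 T cells over tags in 2 of the 3 tags.

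The share of cycling cells in cDC1, the dendritic cells that cross-present antigen to CD8 T cells, was 25.6% (11 of 43), 18.6% (8 of 43) and 40.6% (13 of 32), or 27.1% over the tags (interval 19.3 to 36.1). In cDC2 it was 6.25%, 3.17% and 5.08% and in CCR7 DC 2.22%, 2.78% and 6.49%, below the lowest cDC1 value in every tag. The cDC1 cells were deeper, with a median of 14082 molecules against 6688 in cDC2 and 6144 in CCR7 DC. In cells of 4000 to 8000 molecules before thinning, 1 of 16 cDC1 (6.25%, interval 0.158 to 30.2) and 4 of 90 cDC2 (4.44%, interval 1.22 to 11) were called, a difference not detectable at this number of cells. From 8000 molecules up, 31 of 98 cDC1 (31.6%, interval 22.6 to 41.8), 5 of 66 cDC2 (7.58%, interval 2.51 to 16.8) and 6 of 80 CCR7 DC (7.5%, interval 2.80 to 15.6) were. The order of Treg cells and cDC1 was not the same in every tag, since Treg cells were higher by 5.79 and 27.0 points in tags 8 and 9 and lower by 13.2 points in tag 10. Plasmacytoid dendritic cells had 2 cycling cells of 115, and B cells 10 of 157.

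In myeloid cells few cells were called. Macrophages had 5.49% (22 of 401), 4.15% (20 of 482) and 5.34% (30 of 562), monocytes 2.38%, 1.64% and 3.13% and Arg1 macrophages, which express arginase 1 and little C1q, 2.60%, 2.5% and 3.26%. Neutrophils were given as the background of the call. Their median was only 1893 molecules, against 8480 in macrophages before thinning. They had 4 cycling cells of 423, with 0 of 180 in tag 8 (interval 0 to 2.03), 2.70% in tag 9 and 0.758% in tag 10. The macrophage share exceeded the neutrophil share by 5.49, 1.45 and 4.58 points. Gamma-delta T cells, monocytes, Arg1 macrophages, CCR7 DC and plasmacytoid dendritic cells each had a tag whose share lay at or below the highest neutrophil value, so their shares are not told from that background. The melanoma gate, which caught 84 cells with many molecules of the 4 melanoma genes despite the CD45 sort, gave 62.1%, 53.8% and 40.9% (41 of 77 cells).

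**Figure D1:**
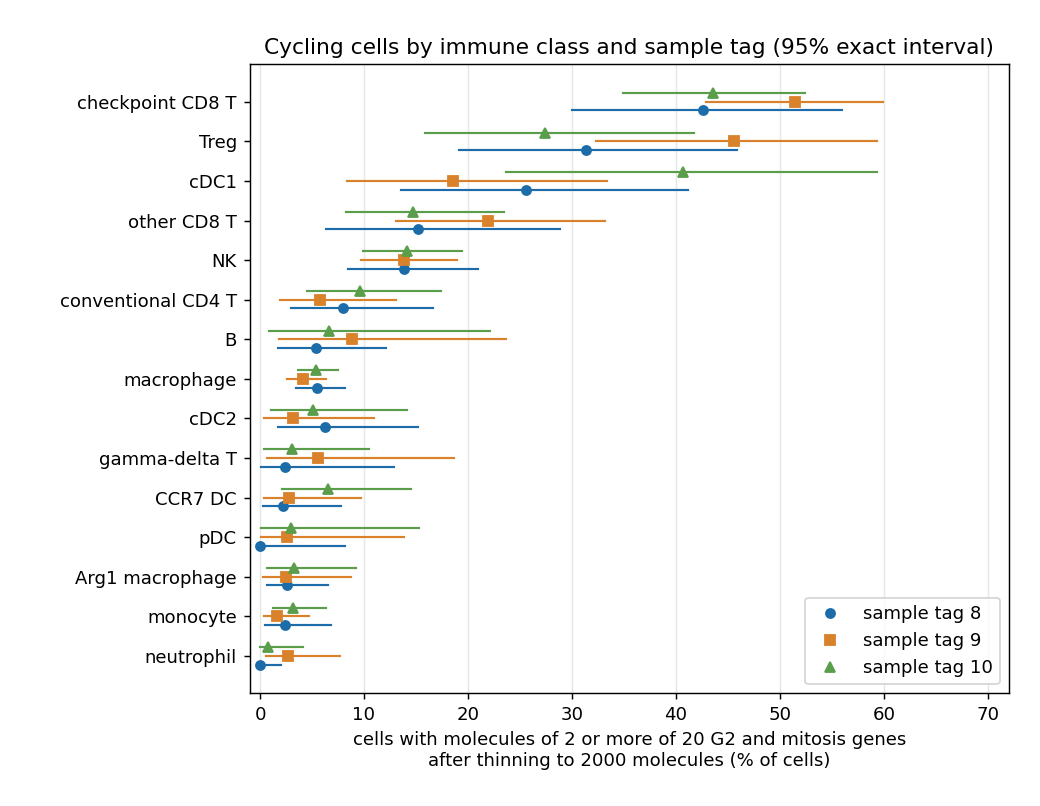
Percent of cells called cycling at 2000 molecules (horizontal axis, percent of cells) in each class (rows), with 1 point for each of tags 8, 9 and 10 and bars for the exact 95% interval of each share. Checkpoint CD8 T cells lie between 42.6% and 51.4%, above every tag of other CD8 T cells (14.7% to 21.9%), and neutrophils lie between 0% and 2.70%.

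The calls near the threshold differed between classes. In checkpoint CD8 T cells 90 of 334 cells kept molecules of 1 of the genes, 45 of 2 and 111 of 3 or more. In macrophages 303 kept 1, 46 kept 2 and 26 kept 3 or more of 1445, and no neutrophil kept 3. Without thinning the median share over tags was 66.7% in checkpoint CD8 T cells, 58.1% in cDC1, 53.7% in Treg cells, 26.3% in macrophages, 25.2% in other CD8 T cells, 23.4% in NK cells and 1.89% in neutrophils.

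Cycling lymphocytes had more RNA than the other cells of their class, a measurement that bears on each share above. The median was 13094 molecules in cycling and 6572 in other checkpoint CD8 T cells, 10767 and 3990 in Treg cells, 9195 and 3626 in NK cells, and 17676.5 and 12247 in cDC1. In macrophages the order was the opposite, 7001 and 9220. Within cells of 2000 to 4000 molecules before thinning, the cycling share was 16.7% in checkpoint CD8 T cells (8 of 48, interval 7.48 to 30.2) and 13.3% in other CD8 T cells (15 of 113, interval 7.62 to 20.9), a difference not detectable at this number of cells. At 4000 to 8000 molecules it was 30.4% (28 of 92, interval 21.3 to 40.9) and 12.7% (10 of 79, interval 6.24 to 22.0). From 8000 molecules up it was 61.9% (120 of 194) and 54.5% (12 of 22, interval 32.2 to 75.6), which again overlap. Treg cells exceeded conventional CD4 T cells in each range, with 11.9%, 26.3% and 62.9% against 3.61%, 20.4% and 25%. In the middle range the intervals overlap widely (13.4 to 43.1 and 10.2 to 34.3), and the last value rests on 12 cells. NK cells went from 5.02% (16 of 319) through 10% (18 of 180) to 51.6% (49 of 95), and macrophages from 8.50% (21 of 247) to 3.85% (32 of 831). Cell depth moved with the cycling call and with the class, and its part in the class differences was otherwise not tested.

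**Figure D2:**
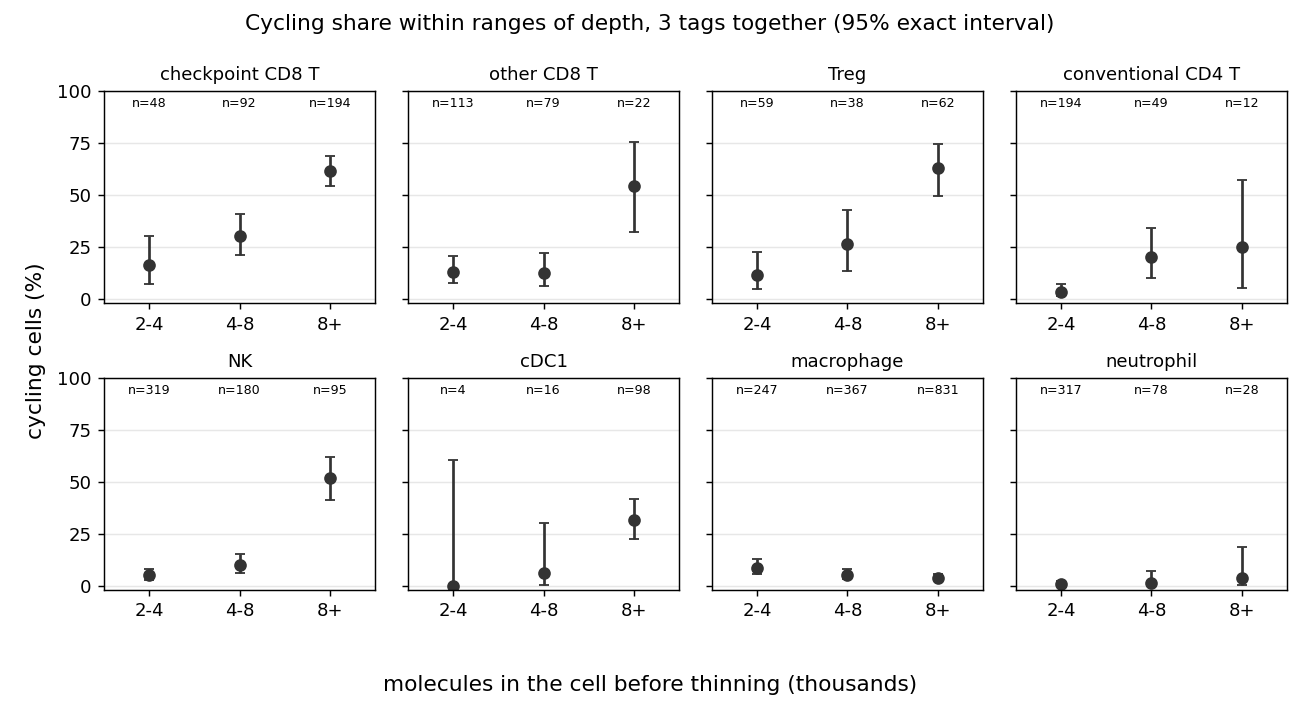
Percent of cells called cycling after thinning to 2000 molecules (vertical axis) in cells of 2000 to 4000, 4000 to 8000 and 8000 or more molecules before thinning (horizontal axis), cells of the 3 tags together, for 8 classes, with exact 95% intervals. The share rises with depth in checkpoint CD8 T cells (16.7% to 61.9%), Treg cells (11.9% to 62.9%) and NK cells (5.02% to 51.6%) and falls in macrophages (8.50% to 3.85%).

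The cycling cells were spread over many classes. Of all cells outside the melanoma and fibroblast gates, 8.56% (202 of 2361), 11.8% (299 of 2525) and 10.7% (289 of 2700) were called cycling. Of these 790 cells, checkpoint CD8 T cells made up 156 (19.7%), NK cells 83 (10.5%), macrophages 72 (9.11%), Treg cells 56 (7.09%), other CD8 T cells 37 (4.68%) and cDC1 32 (4.05%). Another 256 (32.4%) were in no class. Of those, 154 (60.2%) held at least 3 T receptor molecules, against 37.3% of the other cells in no class, and 29 (11.3%) held at least 3 melanoma marker molecules, against 2.88%.

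Levels were then compared gene by gene, as CPM of the molecules summed over all filtered cells of a class and tag. In bulk sums of this kind, fewer expressing cells and less RNA per cell cannot be told apart. Checkpoint CD8 T cells had the highest median CPM over tags of the 15 classes for 14 of 16 replication genes, 13 of 20 G2 and mitosis genes and all 4 widely expressed genes. Treg cells were highest for 7 G2 and mitosis genes (Mki67, Ccnb1, Ccnb2, Ube2c, Cdc20, Cenpf and Aurka) and for Rrm2, and B cells for Cdt1. The 20 G2 and mitosis genes together gave 2831, 2402 and 2360 CPM in checkpoint CD8 T cells and 2271, 2611 and 1977 CPM in Treg cells, ranges that overlap. Other CD8 T cells gave 1213, 1126 and 1304 CPM, NK cells 1443, 1164 and 962 CPM, and cDC1 1094, 972 and 1611 CPM, which overlap with each other. Macrophages gave 354, 191 and 220.5 CPM and neutrophils 138, 201 and 115 CPM. In some small sums 1 cell carried much of the total: in tag 10 a single cell held 285 of 418 G2 and mitosis molecules of CCR7 DC (682 CPM with it and 245 without; the same cell held 2764 molecules of the 3 collagen genes of the fibroblast list), 153 of 291 of conventional CD4 T cells (741 and 368 CPM) and 56 of 86 of B cells (632 and 259 CPM).

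**Figure D3:**
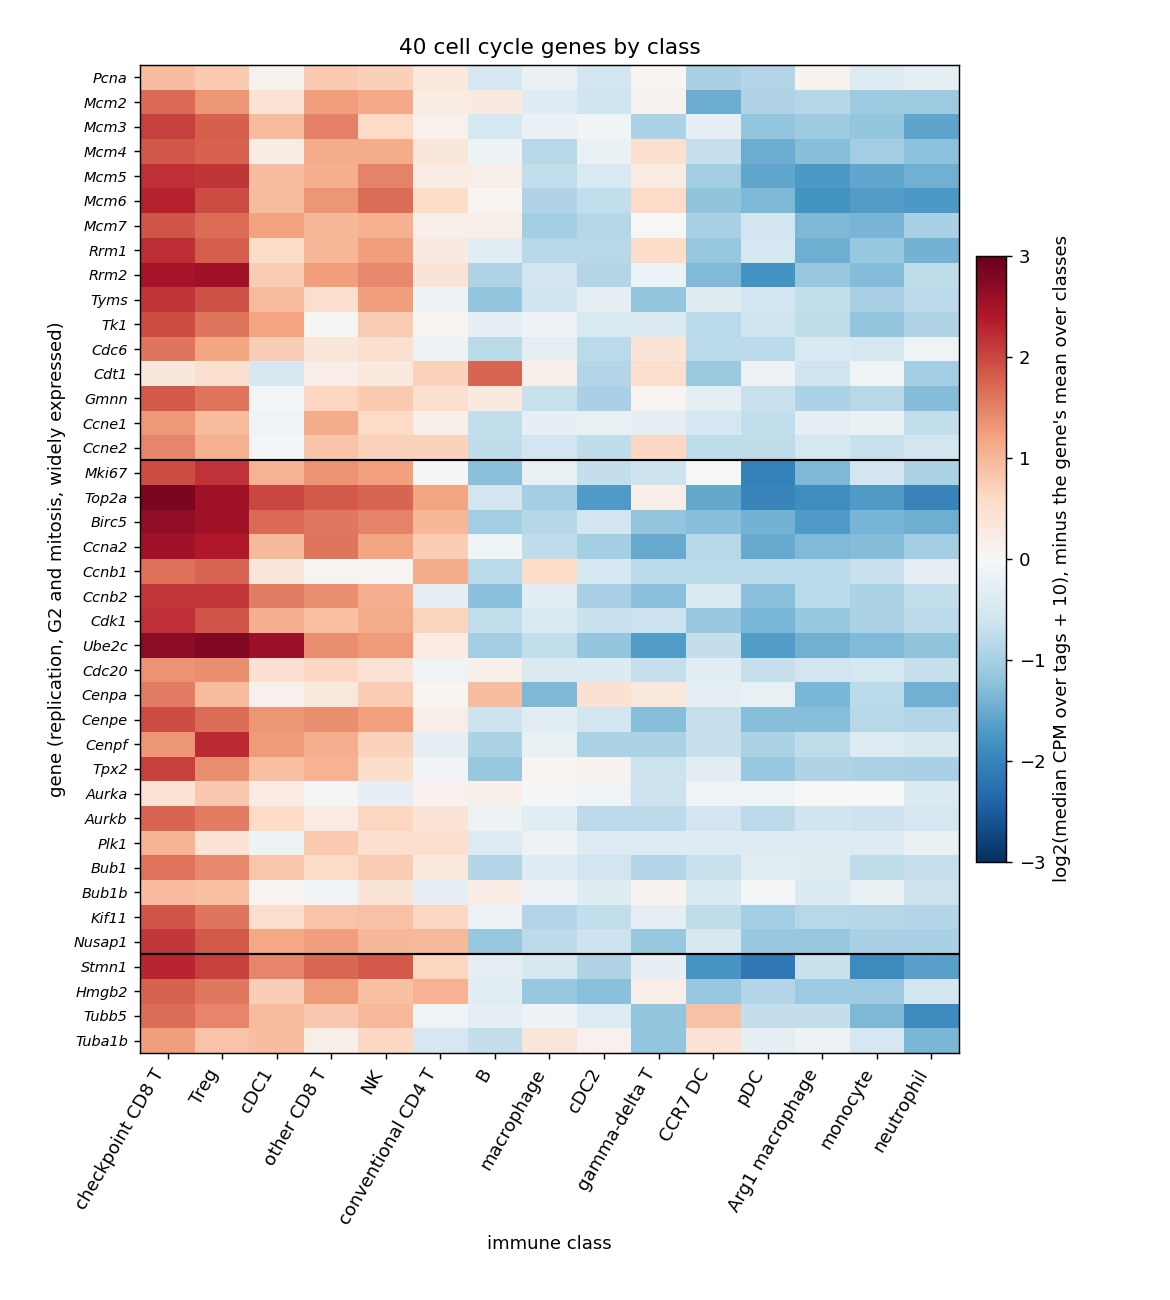
Heat map of the 40 genes (rows, grouped by role) in 15 immune classes (columns); the colour is log2(median CPM over the 3 tags + 10) minus the gene's mean over classes. Most rows are highest in checkpoint CD8 T cells or Treg cells, while Cdt1 is highest in B cells.

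Among the mitotic genes, Mki67, whose product coats mitotic chromosomes and is the common marker of proliferation, stood at 354, 283 and 309 CPM in checkpoint CD8 T cells, with a molecule in 162 of 336 cells. It was at 317, 369 and 358 CPM in Treg cells, 203, 181 and 197 CPM in other CD8 T cells, and 237, 181 and 149 CPM in NK cells. Cells of the cDC1 class had 125, 174 and 157 CPM, conventional CD4 T cells 69.9, 54.9 and 102 CPM, macrophages 80.7, 59.7 and 46.2 CPM and neutrophils 31.8, 49.9 and 32.2 CPM. Checkpoint CD8 T cells and Treg cells thus overlapped, as did other CD8 T cells, NK cells and, in part, cDC1. Top2a was at 546, 454 and 504 CPM in checkpoint CD8 T cells, 419, 558 and 328 CPM in Treg cells, 306, 236 and 235 CPM in NK cells, and 155, 282 and 309 CPM in cDC1. In neutrophils Top2a was at 8.47, 36.3 and 5.16 CPM. Ube2c, the ubiquitin-conjugating enzyme of the anaphase-promoting complex, was at 181, 56.4 and 221 CPM in cDC1, low in 1 of the tags, and had no molecule in gamma-delta T cells of any tag.

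Among the replication genes, Mcm6 was at 256, 296 and 280 CPM in checkpoint CD8 T cells and 115, 137 and 140 CPM in other CD8 T cells. NK cells had 175, 163 and 187 CPM of Mcm6, above every tag of other CD8 T cells and below every tag of checkpoint CD8 T cells, and macrophages 21.5, 17.3 and 22.6 CPM. Treg cells of tag 8 stood apart for replication genes: the 16 genes together gave 1034 CPM there and 2338 and 2237 CPM in tags 9 and 10, and Rrm2, a subunit of the enzyme that makes deoxyribonucleotides, gave 68.6, 190 and 204 CPM. Pcna, the sliding clamp of the DNA polymerases that also serves DNA repair, was widespread, with 523, 566 and 618 CPM in checkpoint CD8 T cells but still 247, 256 and 263 CPM in macrophages and 191, 239 and 236 CPM in neutrophils. Cdt1, which loads the helicase onto origins, did not follow the others. It was at 161, 145 and 191 CPM in B cells and 101, 72.2 and 53.4 CPM in conventional CD4 T cells, against 38.7, 66.2 and 54.7 CPM in checkpoint CD8 T cells. Cdt1 spans chr8:122568015-122573554.

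The members were then compared in 6 pairs of classes, each class set against the other, as log2 ratios of CPM within each tag. Genes entered with 30 or more molecules in the 2 classes together. A gene was called higher or lower when each of the 3 tags gave a ratio of 2-fold or more the same way. A count of 0 was set to 3, so a ratio against it is a bound. Pairs that share a class share its cells.

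In checkpoint against other CD8 T cells, 5 of the 40 genes were called higher and none lower, against 2.52% of 8706 genes called higher and 2.58% lower. They were Tk1 (thymidine kinase, 108, 78.7 and 77.8 CPM against 13.2, 33.6 and 8.49 CPM, median log2 ratio 3.03), Aurkb (the kinase of the chromosomal passenger complex, 1.9), Tyms (thymidylate synthase, 80.5, 89.4 and 108 CPM against 22.1, 36.1 and 19.1 CPM, 1.87), Rrm1 (the large subunit of ribonucleotide reductase, 203, 228 and 255 CPM against 61.8, 114 and 91.3 CPM, 1.48) and Cdk1 (118, 104 and 109 CPM against 30.9, 38.7 and 46.7 CPM, 1.42). The sums of other CD8 T cells held 226654, 387367 and 470954 molecules in all, so their low CPM of Tk1 and Tyms rest on few molecules. The median ratio over the 40 genes was 0.99 and over all tested genes 0.09, and all 40 medians were above 0. Rrm2, the small subunit of ribonucleotide reductase, was at 182, 178 and 254 CPM against 52.9, 132 and 72.2 CPM and was not called. Other genes that were not called include Mcm6 (1.11), Top2a (0.96), Mki67 (0.65), Hmgb2 (0.49), Stmn1 (0.44), Pcna (0.27) and Cdt1 (0.16). Transcripts of 2 hemoglobin genes were at 1444 CPM in other CD8 T cells of tag 10 and at 9.89 to 80.0 CPM in the other 5 sums of the contrast, where 1 cell held 656 of 680 such molecules. Without the cells that held 10 or more molecules of hemoglobin or collagen genes, 5 genes were called (2.52% of all genes), 4 of them the same. Rrm1 (1.46) then fell short of the call. This alternative was added after seeing the data. The count depended on the cells used. It was 14 without tag 9 and 9 without tag 10, where 6.56% and 5.92% of all genes were called higher. It was 8 from means over cells (2.46% of all genes), 0 with the gate minimums doubled (1.8%) and 1 of 28 in cells of 2000 to 8000 molecules (1.71%).

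In Treg against conventional CD4 T cells, 16 of 39 tested genes were called higher and none lower, against 3.21% and 2.78% of 7409 genes: 11 of 19 G2 and mitosis genes, 3 of 16 replication genes and 2 of 4 widely expressed genes. The sum of the 16 replication genes was 1034, 2338 and 2237 CPM in Treg cells and 825, 849 and 1069 CPM in conventional CD4 T cells, and whether mitotic and replication genes differed in their ratios was not tested. The median over the 39 genes was 1.64 and over all genes 0.05, with 38 of 39 above 0. Cenpf, a kinetochore protein, was at 125, 80.5 and 64.6 CPM against 17.5, 5.77 and 5.09 CPM (median log2 ratio 3.67), and Ccnb2 at 94.6, 102 and 91.9 CPM against 10.5, 5.77 and 10.2 CPM (3.17). Mki67 had a ratio of 2.18, from 1.81 to 2.75. The spindle checkpoint kinase Bub1b (2.77), the spindle factor Tpx2 (1.94), the kinesin Cenpe (1.91), cyclin A2 (Ccna2, 1.89) and survivin (Birc5, 1.64) were also called. Several of these ratios rest on few molecules in conventional CD4 T cells: 1, 1 and 1 of Bub1b, 3, 2 and 4 of Ccnb2, 5, 2 and 2 of Cenpf, 3, 1 and 7 of Tpx2, and 7, 1 and 7 of Cenpe in tags 8, 9 and 10. Genes this low there passed the minimum of 30 molecules through the Treg cells. The 3 called replication genes were Tk1 (2.08), the origin licensing factor Cdc6 (1.76) and Rrm1 (1.10). Tyms (2.87) and Rrm2 (2.15) had large medians but were not called, Tyms being lower in tag 8 (-0.27), and Cdt1 had a ratio of -0.34. The count was 26 without tag 8, where 7.39% of all genes were called higher. It was 10 with doubled gates (2.67% of all genes). It was 5 of 19 in cells thinned to 2000 molecules (2.49%) and 2 of 19 in cells of 2000 to 8000 molecules (1.85%).

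Every one of the 40 genes had a lower median in NK cells than in all CD8 T cells together, with a median of -0.93 over the genes and -0.07 over all tested genes. Of the 40, 5 were called lower and none higher, against 3.37% and 3.67% of 9666 genes. Cyclin B1 (Ccnb1) was at 13.3, 8.60 and 6.75 CPM against 60.6, 37.0 and 30.5 CPM (median log2 ratio -2.18), followed by Tpx2 (-1.54), Mcm3 (-1.43), Ube2c (-1.33) and Cdc6 (-1.16). Mki67 (-0.51), Stmn1 (-0.26) and Pcna (-0.21) were not called. In the pooled CD8 T sum, checkpoint cells held 620887, 1677370 and 1516817 molecules and other CD8 T cells 226654, 387367 and 470954. The median sum of the 16 replication genes was 1424 CPM in NK cells and 1263 in other CD8 T cells. For the 20 G2 and mitosis genes it was 1164 and 1213 CPM. Genes were not compared between NK cells and other CD8 T cells alone. The count of called genes was larger under each alternative that moved it by over 1.5 times. It was 12 without tag 8 and 9 without tag 9, where 5.3% and 4.71% of all genes were called lower. It was also 10 from means over cells (3.99% of all genes). It was 10 of 37 in cells thinned to 2000 molecules (2.91%) and 14 of 34 in cells of 2000 to 8000 molecules (3.2%).

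Macrophages had higher values than monocytes for 8 of 38 tested genes and lower for none, against 2.82% and 0.983% of 10479 genes, with a median of 1.23 over the genes and 0.09 over all. Tubb5, a tubulin, was at 288, 218 and 245 CPM against 103, 92.6 and 101 CPM (median log2 ratio 1.28). The other 7, namely Ccna2 (2.64), Tk1 (2.40), Ccnb2 (2.09), Mcm2 (1.83), Ube2c (1.75), Tyms (1.67) and Mcm5 (1.63), rested on at most 9 molecules in any tag of the monocytes. In cells thinned to 2000 molecules none of 23 tested genes was called, where 1.95% of all genes were. Without the cells that held a melanoma marker the count was 4 of 35 (2.19% of all genes). It was 14 without tag 9 and 13 without tag 10, where 5.27% and 4.72% of all genes were called higher.

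The largest count was in dendritic cells. In cDC1 against cDC2, 20 of 33 tested genes were called higher and none lower, against 4.36% and 4.74% of 7316 genes: 13 of 15 G2 and mitosis genes, 4 of 14 replication genes and 3 of 4 widely expressed genes. The median was 2.16 over the genes and 0.01 over all. Top2a was at 155, 282 and 309 CPM in cDC1 against 12.5, 42.8 and 11.1 CPM in cDC2 (median log2 ratio 3.62). Hmgb2, a chromatin protein, was at 884, 847 and 1232 CPM against 207, 214 and 267 CPM (2.09), and Stmn1, which regulates microtubules, at 221, 295 and 413 CPM against 20.9, 49.2 and 68.9 CPM (2.58). Mki67 had a ratio of 1.97. The replication genes called were Tk1 (2.73), Tyms (2.35), Mcm7 (1.73) and geminin (Gmnn, 1.73), which blocks relicensing of origins. The centromeric histone Cenpa did not differ in this way (-0.09), with 130, 98.4 and 174 CPM in cDC1 and 207, 105 and 164 CPM in cDC2. All G2 and mitosis genes together, Cenpa included, held 136, 152 and 134 molecules in cDC2 of tags 8, 9 and 10 (284, 325 and 298 CPM). Ratios of the called mitotic genes thus rest on few molecules in cDC2. Genes this low there could pass the molecule minimum through the cDC1 cells. Thinning left 9 genes to test, 5 of them called (3.25% of all genes), and cells of 2000 to 8000 molecules left 5, none called (2.57%).

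CCR7 DC, the migratory mature dendritic cells, were lower than cDC1 and cDC2 together for 12 of 36 tested genes. None was higher. This contrast has the highest background, 10.1% of 8528 genes called lower and 7.63% higher, and a median of -0.18 over all genes against -1.41 over the members. The 20 G2 and mitosis genes summed to 1094, 972 and 1611 CPM in cDC1 but only 284, 325 and 298 CPM in cDC2. CCR7 DC had 175, 223 and 682 CPM (245 in tag 10 without 1 cell). The median sum of the 16 replication genes was 298 CPM in CCR7 DC, 410 in cDC2 and 993 in cDC1. Genes were not compared between CCR7 DC and cDC2 alone. Of 14 replication genes 7 were called, among them Tk1 (median log2 ratio -2.58), Rrm2 (-2.33), Mcm6 (-2.09), Mcm5 (-2.08) and Rrm1 (-1.96). Mcm6 was at 15.1, 15.1 and 16.3 CPM against 36.0, 64.4 and 73.1 CPM. Top2a was at 7.54, 15.1 and 76.7 CPM against 90.1, 179 and 161 CPM (-3.57), with the single cell of tag 10 described above included in the CCR7 DC value. Mki67 (-0.61) was not called, and Tubb5 had a ratio of 0.09. Markers of other cells were uneven in this contrast. The 3 collagen genes of the fibroblast list were at 3984, 5.67 and 4526 CPM in CCR7 DC, with 2626 of 2640 molecules in 1 cell of tag 8 and 2764 of 2773 in 1 cell of tag 10, and had 4 to 5 molecules in each tag of cDC1. The hemoglobin genes were at 592 CPM in CCR7 DC of tag 10 and 993 CPM in cDC2 of tag 10 (428 of 447 molecules in 1 cell), where Arg1 was at 509 CPM (227 of 229 molecules in 1 cell). Without the cells that held 10 or more collagen or hemoglobin molecules, 17 of 34 genes were called lower in CCR7 DC (12.1% of all genes). The count in cDC1 against cDC2 then stayed at 20 of 33 (4.37%). The CCR7 DC count was 20 of 33 with doubled gates (12.7%), 3 of 13 after thinning (9.65%) and 0 of 9 in cells of 2000 to 8000 molecules (9.91%).

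**Figure D4:**
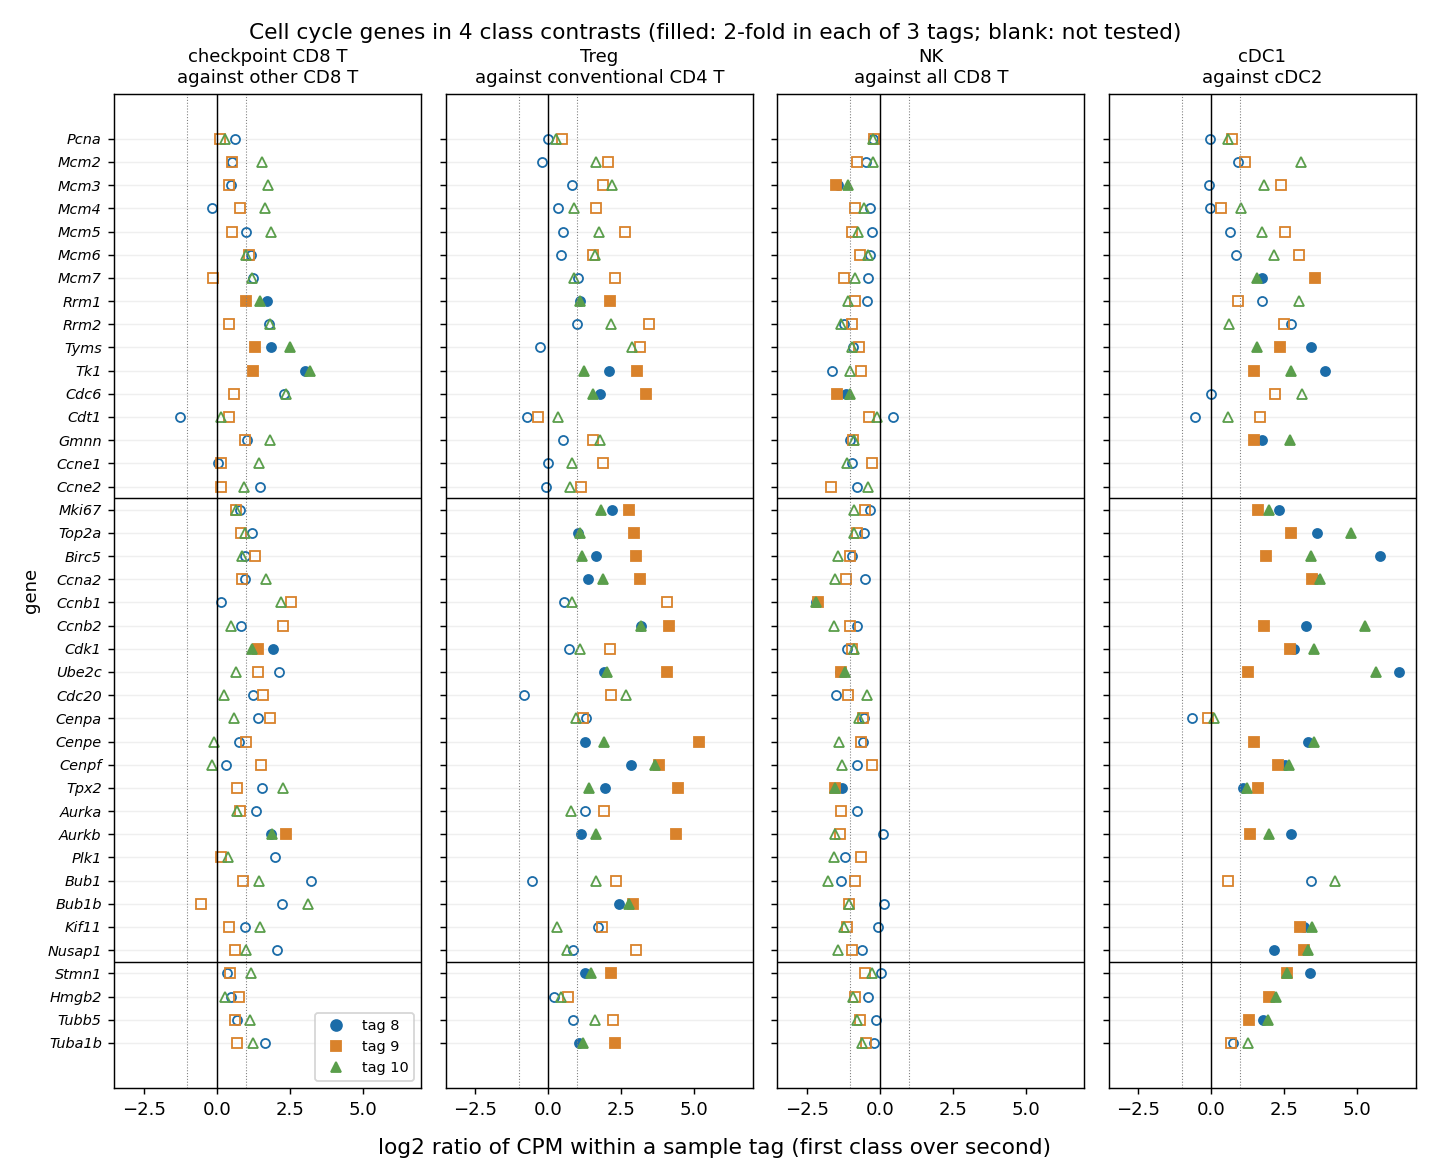
Log2 ratio of CPM within each tag (horizontal axis) for the 40 genes (rows) in 4 of the 6 contrasts (panels), with 1 point per tag, filled where the gene was called in all 3 tags; genes not tested are blank. Filled points number 5 genes in checkpoint against other CD8 T cells, 16 in Treg against conventional CD4 T cells, 5 in NK cells against CD8 T cells and 20 in cDC1 against cDC2.

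Other genes of the pathway were read from a list of 51: G1 cyclins and kinases, inhibitors, regulators, and further replication and mitosis genes. In checkpoint against other CD8 T cells, 48 were tested, 5 were called higher and 4 lower (background 2.52% and 2.58%). The lower ones, all from the list of inhibitors, were Cdkn2d (-1.87), Tob1 (-1.53), Btg1 (-1.32, with 722, 584 and 653 CPM against 1875, 1389 and 1631 CPM) and Btg2 (-1.19). The 11 tested inhibitors did not go down as a list, with a median of 0.02 and 6 above 0. The higher ones were the inhibitor Cdkn2a (2.90), the G1 kinase Cdk6 (1.81), the dUTPase Dut (1.68), the PCNA-associated factor Pclaf (1.32) and the condensin Smc2 (1.18). In Treg against conventional CD4 T cells 4 of 42 were called higher (Cdca8 2.02, Cdca3 1.96, Uhrf1 1.91 and Pclaf 1.44; background 3.21%) and 2 lower (Btg2 -1.58 and Btg1 -1.21, lower background 2.78%). In NK against CD8 T cells 6 of 49 were called lower, Cdkn2a (-3.21) among them, and 0 higher (background 3.37% and 3.67%). Macrophages against monocytes gave 5 higher, led by Pclaf (3.00), and 2 lower, E2f2 (-1.86) and the G1 cyclin Ccnd3 (-1.32), of 45 (background 2.82% and 0.983%). In cDC1 against cDC2, 12 of 38 were called higher, Smc2 (3.55) and Cdca8 (2.91) among them (background 4.36%). The 1 called lower (background 4.74%) was the p53 target and inhibitor Cdkn1a (-1.40; 319, 503 and 406 CPM against 1207, 1284 and 1071 CPM). In CCR7 DC 12 of 41 were called lower, among them Pclaf (-4.35), E2f1 (-2.33) and the G1 cyclin Ccnd1 (-1.86), where 10.1% of all genes were. The 1 called higher was the pocket protein Rbl2 (1.68; background 7.63%).

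The cycling call uses only G2 and mitosis genes, so the replication genes of the same cells are a separate measurement, although both come from the same cell and share its depth. Their means were taken from all molecules of the cell, scaled to 2000. In checkpoint CD8 T cells the sum of 16 replication genes averaged 5.28, 5.67 and 6.68 molecules per 2000 in cycling cells and 1.95, 2.72 and 2.5 in the others, a ratio of 2.70, 2.08 and 2.67 in tags 8, 9 and 10. The ratio of that sum was 3.95, 3.91 and 2.96 in Treg cells, 2.92, 3.22 and 2.78 in NK cells, and 2.01, 3.02 and 2.0 in cDC1. In macrophages it was 2.30, 1.02 and 2.16. Genes were then counted that had 30 or more molecules in the cells of the class and a higher mean in the cycling cells of each tag. All 16 replication genes were in checkpoint CD8 T cells (where 19.7% of 8179 genes were), Treg cells (22.4% of 5966) and NK cells (19% of 7695). The count was 10 of 11 in other CD8 T cells (15.6% of 4940 genes), 12 of 14 in cDC1 (19% of 5742) and 4 of 9 in conventional CD4 T cells (10.1% of 4715). In macrophages it was 4 of 15, namely Mcm5, Mcm6, Rrm1 and Tk1 (11.7% of 10178). Rrm2 had a ratio of 14.1, 14.6 and 7.75 in checkpoint CD8 T cells and 22.3, 32.0 and 12.1 in NK cells, while Pcna had 1.64 to 1.85 and 1.65 to 2.13. The share of cells with molecules of at least 2 replication genes was 65.0% in checkpoint CD8 T cells, 45.9% in Treg cells, 45.8% in other CD8 T cells, 40.7% in NK cells, 15.2% in macrophages and 4.49% in neutrophils, so that other CD8 T cells and Treg cells lay together on this measure and apart on the mitotic one.

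**Figure D5:**
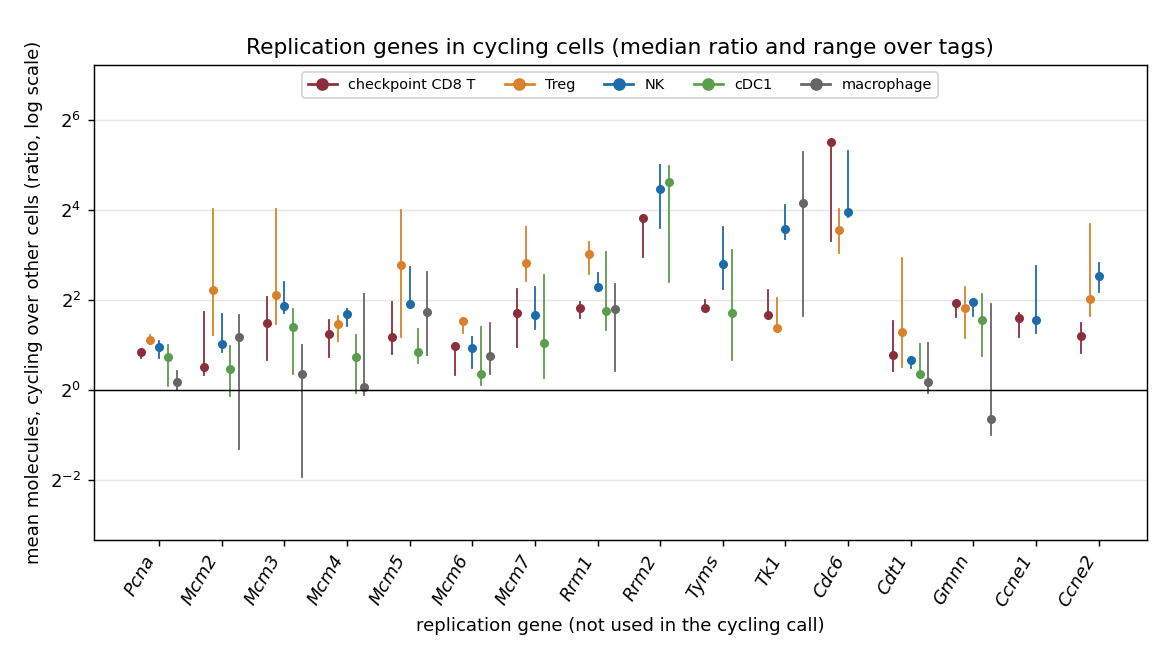
Ratio of mean molecules per 2000 in cycling cells to that in the other cells of the class (vertical axis, log scale) for the 16 replication genes (horizontal axis) in 5 classes (colours), with the median and range over the 3 tags, shown where each tag gave a ratio above 0. Rrm2 and Cdc6 have the largest ratios in checkpoint CD8 T cells (median 14.1 and 46.0), and Mcm2, Cdt1 and Pcna the smallest (1.43, 1.73 and 1.80).

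The other cell cycle genes of the list were read in the same way, against the same shares of all genes. Higher in every tag were 30 of 47 tested genes in checkpoint CD8 T cells, 20 of 38 in Treg cells, 29 of 43 in NK cells, 20 of 36 in cDC1 and 15 of 45 in macrophages. All 12 mitosis genes of the list were among the 30, and 8 of the 9 tested replication and checkpoint genes. The G1 kinase Cdk4 had a median ratio of 1.53 in checkpoint CD8 T cells, 2.55 in Treg cells and 2.73 in NK cells, higher in each tag. Lower in each tag were 22.2% of all genes in checkpoint CD8 T cells, 22.8% in Treg cells and 24.1% in NK cells. The inhibitor Cdkn1b was lower in each tag in these 3 classes (0.427, 0.404 and 0.543), as was Btg1 (0.565, 0.478 and 0.675). Cyclin D2 (Ccnd2) was lower in each tag in checkpoint CD8 T cells (0.508) and NK cells (0.526), with 1.04 in Treg cells.

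Of 21 T cell state genes, 2 were higher in the cycling checkpoint CD8 T cells of every tag, where 19.7% of all genes were: the lytic protein perforin (Prf1, median ratio 1.47, range 1.18 to 2.58) and the glycolytic enzyme Ldha (1.32, 1.13 to 1.41). Another 7 were lower in every tag, against 22.2% of all genes: Pdcd1 (0.876), Lag3 (0.651) and Tigit (0.795), which encode inhibitory receptors (Pdcd1 and Lag3 being part of the gate that set the class), and Il7r (0.426), Ccr7 (0.579), S1pr1 (0.701) and Klf2 (0.779), which belong to resting and recirculating T cells. The remaining 12 went different ways in different tags, among them Gzmb (1.10) and Tcf7 (0.444). Each cell of the class had to hold a minimum of molecules of the gate genes, whatever its depth. Cycling cells were deeper (median 13094 molecules against 6572), so scaling by depth favours lower values of Pdcd1 and Lag3 in them. This bias enters 2 of the 7 lower genes, and its size was not tested. These counts are given as a description. Ldha was also higher in every tag in the cycling Treg cells (1.69) and NK cells (1.37).

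Transcripts of other cells were counted in the cycling cells. The sum of 4 melanoma markers was higher in cycling than in other macrophages in each tag (ratios of 1.79 to 2.94), and in checkpoint CD8 T cells in 1 of 3 tags (0.470 to 2.42). In NK cells and cDC1 it was higher in 0 of 3 tags. The sum of 3 C1q genes was higher in 2 of 3 tags in cycling checkpoint CD8 T cells (ratios of 0.434 to 6.14), other CD8 T cells (0.534 to 1.16), conventional CD4 T cells (0.899 to 2.11) and macrophages (0.956 to 1.45). It was higher in 1 of 3 tags in NK cells (0.549 to 1.07) and in 0 of 3 in Treg cells (0 to 0.165) and cDC1 (0.302 to 0.739). The part of these transcripts in the cycling shares was otherwise not tested. Without the cells that held any melanoma marker molecule, the median macrophage share over tags was 5.17%, against 5.34% with them.

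Genes outside the 40 that followed the summed G2 and mitosis genes most closely over class and tag were Spc24 (Pearson r 0.949), Pclaf (0.947), Lig1 (0.937), Cdca8 (0.928), Diaph3 (0.928), Tacc3 (0.922), Dut (0.922), Hells (0.921), Cit (0.915) and Smc2 (0.914). These are descriptions over 45 sums (15 classes in 3 tags) among 9374 genes, on log2(CPM + 10), and points share the library and, within a tag, its depth. Each of the 40 genes was set in the same way against the summed G2 and mitosis genes other than itself. The median r was 0.884 for replication genes, from 0.356 for Cdt1 to 0.933 for Mcm5. For G2 and mitosis genes it was 0.883, from 0.567 for Aurka to 0.958 for Birc5.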

How the data were processed

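One whole transcriptome library of CD45+ tumour cells was analysed. The deposited table holds whole-number counts of molecules, made by the authors on GRCm38 and GENCODE vM19 with pipeline version 1.9.1 (BD WTA Multiplex Rhapsody), per the file headers, while the submitters' processing notes name GRCm39; the header was followed. The design text speaks of a targeted library and of suspensions of fewer genotypes than the labels list, and the counts were used as the whole transcriptome table they are. Each deposited cell carries a tag call. The filters were 1 tag, 200 or more genes and 25% or less mitochondrial molecules. Multiplet tag calls were left out, and doublets within a tag were not removed.

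Classes came from minimum and maximum molecule counts of marker genes. The limits were set after seeing the marker counts and without the cell cycle genes. A cell meeting several gates was put in no class (20 cells), and 64 CD8 T cells with 1 checkpoint molecule in neither CD8 class. Names of classes rest on these gates alone.

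Shares used cells thinned to 2000 molecules without replacement (seed 0). Levels and contrasts used summed counts as CPM. The 3 tags are samples of 1 capture, and no test across them was made. The 40 genes, the other lists and the comparisons were chosen with earlier results of these data known. The genes named are the 40, lists of 51 cell cycle and 21 T cell state genes, and the 10 others most correlated with the G2 and mitosis sum. Alternatives covered thinning, the call, filters, gates, scaling (edgeR 4.0.16), weights and tags. Scripts ran in R 4.3.3 and Python 3.11.15 with pandas 2.3.3, scipy 1.17.1, numpy 2.4.6 and matplotlib 3.10.9, and were tested on simulated data. Intervals cover counting error only.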

Additional observations from a re-analysis of the deposited data

Results flagged for a closer look

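Cells without a single tag call entered no comparison above, and cycling cells were found among them. Of the single-tag cells outside the melanoma and fibroblast gates, 790 of 7586 were called cycling (10.4%, exact Clopper-Pearson 95% interval 9.74 to 11.1). These include 2237 cells in no class. Of the multiplet tag calls with at least 2000 molecules, 125 of 1092 were called cycling (11.4%, interval 9.62 to 13.5, which overlaps with that of the single-tag cells). By the same gates, 41 of these cells were checkpoint CD8 T cells, 20 of them cycling, and 412 were in no class, 56 of them cycling; the median was 6967 molecules. Of the cells with an undetermined tag, 53 of 120 were called cycling (44.2%, interval 35.1 to 53.5). Of these 120 cells 75 met the melanoma gate, 39 of them cycling, 40 were in no class, 13 of them cycling, and the median was 20798.5 molecules.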

How the results depend on the processing

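Shares here are medians over tags. Checkpoint CD8 T cells had the highest share of the immune classes in every setting run except thinning to 4000 molecules, where Treg cells did. Thinned to 1000 molecules the share was 29.5% in checkpoint CD8 T cells, 7.26% in NK cells and 2.08% in macrophages, and thinned to 4000 it was 63.1%, 38.8% and 10.6%, with 69.4% in Treg cells and 2.86% in neutrophils. Without thinning it was 66.7%, 23.4% and 26.3%, with 53.7% in Treg cells and 58.1% in cDC1. Asking for 3 of the genes gave 34.4%, 8.82% and 2.31%. Asking for 1 gave 71.8%, 42.4% and 25.5%, with 66.7% in Treg cells, 41.9% in cDC1 and 13.6% in neutrophils. Mki67 or Top2a gave 18.1% in NK cells, 11.5% in macrophages and 3.33% in neutrophils. At least 2 replication genes gave 66.4%, 41.5% and 15.6%, with 43.1% in Treg cells and 3.79% in neutrophils. NK cells had 14.7% with another seed, 14.1% at 10% mitochondrial molecules or fewer (macrophages 4.13%), 14.7% with gate minimums doubled (checkpoint CD8 T cells 51.4%) and 11.5% without cells holding melanoma markers. Added after seeing the data, cells of 2000 to 8000 molecules gave 28.6%, 6.80% and 4.55%, and the checkpoint gate after thinning 38.2%. Leaving out a tag gave 43.1% to 47.5% in checkpoint CD8 T cells, 29.4% to 38.5% in Treg cells, 13.9% to 14.0% in NK cells, 22.1% to 33.1% in cDC1, 4.74% to 5.41% in macrophages and 0.379% to 1.73% in neutrophils. Cells of undetermined tag as a further sample gave no value, since too few fell in the classes.

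Counts of called members, in the order checkpoint CD8 T, Treg, NK, macrophage, cDC1 and CCR7 DC contrast, were 5, 16, 5, 8, 20 and 12. The shares of all genes called the same way were 2.52%, 3.21%, 3.37%, 2.82%, 4.36% and 10.1%. Such shares follow each alternative in brackets. Means over cells gave 8 in the checkpoint (2.46%), 10 in the NK (3.99%) and 4 in the macrophage contrast (2.8%). Thinning, with fewer genes tested, gave 5 in the Treg (2.49%), 10 in the NK (2.91%) and 0 in the macrophage contrast (1.95%). It gave 5 in the cDC1 (3.25%) and 3 in the CCR7 DC contrast (9.65%). Doubled gates gave 0 in the checkpoint (1.8%), 10 in the Treg (2.67%), 4 in the macrophage (2.54%) and 20 in the CCR7 DC contrast (12.7%). Dropping cells with melanoma markers gave 4 in the macrophage contrast (2.19%). Cells of 2000 to 8000 molecules gave 1, 2, 14, 5, 0 and 0 (1.71%, 1.85%, 3.2%, 2.65%, 2.57% and 9.91%). Dropping cells that held 10 or more collagen or hemoglobin molecules, also added after seeing the data, gave 5, 16, 6, 7, 20 and 17 (2.52%, 3.19%, 3.44%, 2.79%, 4.37% and 12.1%). Leaving out a tag gave 6 to 14, 14 to 26, 6 to 12, 9 to 14, 18 to 23 and 12 to 17. Fewer tags then had to meet the call, and the share of all genes called also rose. It was 5.11% to 6.56%, 4.42% to 7.39%, 4.52% to 5.3%, 4.72% to 5.27%, 5.34% to 6.44% and 13.2% to 14.2%. Of the called genes taken singly that were still tested, 789 values kept direction and call and 98 fell short of the call. Part of the 789 was fixed in advance and is no support. A gene called in 3 tags stays called when a tag is left out (62, 61 and 61 values). A molecule minimum lowered to 10 or 1 cannot undo a call (66 values each). The minimum of 500 genes also left all 66 calls in place. The 1 that reversed was Stmn1 in CCR7 DC, with a log2 ratio of 0.36 in cells of 2000 to 8000 molecules. Called genes that fell under the molecule minimum in a setting are not in these values. With them counted as lost, cells of 2000 to 8000 molecules kept 1, 1, 2, 2, 0 and 0 calls, in the same order of contrasts. They lost 4, 15, 3, 6, 20 and 12. The cause of these moves was not tested. Each contrast was taken as a difference within a tag, and the labels give no replicate numbers.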
